A study of Mus musculus with 3 samples.

Results

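Foxd3 binding was examined at 2 regions of the mouse genome that hold genes of the pluripotent state, the Pou5f1 locus on chromosome 17 and the neighbourhood of Gdf3, Dppa3, Nanog and Slc2a3 on chromosome 6. The members are all deposited Foxd3 peaks that overlap 35540000 to 35750000 on chromosome 17 or 122500000 to 122770000 on chromosome 6 (mm9). These windows of 210 and 270 kb held 22 of the 7975 peaks deposited for the series, namely 9 of 3406 in the list from the HA antibody and 13 of 4569 in the list from the Flag antibody.

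The peaks came from chromatin immunoprecipitation and sequencing (ChIP-seq) in the FH-Foxd3 line, mouse embryonic stem cells of the LF2 line that received Foxd3 fused to Flag and HA epitopes from a pTrip lentivirus and were selected with neomycin. Per the series' design text, the added Foxd3 was expressed at close to the endogenous level. The sources used here do not give the promoter that drives it or say whether the line is 1 clone. All samples come from this line, grown without feeders in 15% FBS and LIF, and they are 1 precipitation with anti-HA, 1 with anti-Flag and 1 input of total genomic DNA, which was not analysed here. A peak is listed or not listed, with a start and an end and no height, so read depth is unknown, no spread between replicates can be had, and no test between antibodies was made. The labelled cell type could not be checked against marker genes, because the files hold no expression values.

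Foxd3 is a forkhead transcription factor of embryonic stem cells and of the neural crest. Pou5f1 encodes Oct4, a POU-domain factor that recognises an octamer and often binds beside Sox2, and Nanog encodes a homeodomain factor of the same network. Dppa3 (also called Stella) marks naive cells and primordial germ cells, Gdf3 encodes a ligand of the TGF-beta family, and Slc2a3 encodes the glucose transporter GLUT3. Enhancers before Pou5f1 and on both sides of Nanog are well known in embryonic stem cells. The comparison of the antibodies asks which sites near these genes were listed whichever tag was precipitated.

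The windows came with approximate mm9 positions for 3 of the 5 genes: 35.643 to 35.648 Mb for Pou5f1, 122.657 to 122.665 Mb for Nanog, each rounded to 1 kb, and about 122.58 Mb for Dppa3. Distances to Pou5f1 and Nanog are therefore uncertain by about 500 bp, and that to Dppa3 by about 5 kb. In the RefSeq gene table of GRCm38.p6 the order of protein-coding genes on chromosome 6 is Apobec1, Gdf3, Dppa3, Nanog, Slc2a3 and Foxj2, and on chromosome 17 it is H2-Q10, Pou5f1 and Tcf19. No peak was assigned to an exon, an intron or a UTR, or to Gdf3 or Slc2a3, because no mm9 annotation was used here.

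A Flag peak covered the approximate start of Pou5f1 and another that of Nanog, so the 250 bases before the start of each gene are shown (RefSeq, GRCm38.p6, plus strand, chr17:35505782-35506031 and chr6:122707239-122707488). The table gives 2 starts for each gene and the upstream one was taken. Capitals mark letters found in a search of both strands for short strings known from transcription factor sites. One forkhead string was TGTTTAC. Another that forkhead proteins are known to recognise was TGTTTGC. The shortest of the forkhead strings searched was TAAACA. For the POU family the string was the octamer ATGCAAAT. Its first 7 letters, ATGCAAA, were added to the search after the sequence had been read. For Sox proteins the string searched on both strands was CATTGT.
Pou5f1: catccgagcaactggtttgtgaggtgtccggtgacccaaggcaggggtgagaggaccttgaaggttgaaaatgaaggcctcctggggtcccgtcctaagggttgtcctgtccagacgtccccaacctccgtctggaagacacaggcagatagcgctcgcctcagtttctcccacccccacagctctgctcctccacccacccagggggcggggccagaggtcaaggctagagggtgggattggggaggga
Nanog: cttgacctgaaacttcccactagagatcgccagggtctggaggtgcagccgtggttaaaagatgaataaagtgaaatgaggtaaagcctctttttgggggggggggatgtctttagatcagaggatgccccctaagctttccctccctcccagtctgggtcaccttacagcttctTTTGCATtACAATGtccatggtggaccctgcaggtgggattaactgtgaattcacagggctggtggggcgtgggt

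The Nanog sequence held the reverse complements of the shortened octamer, at bases 176 to 182, and of the Sox string, at bases 184 to 189, counted from 1 at the left. They were separated by a single base and lay 75 to 62 bases before the start. Of 32851 promoter sequences of this length in the table, 4.12% held the shortened octamer, 10.7% the Sox string and 0.642% both, at any spacing. None of the forkhead strings occurred in either printed sequence, while 15.6% of all promoters held at least 1 of them (3.17%, 4.3% and 12% in the order given, the shortest overlapping the reverse complement of the one named before the others). Neither held the full octamer, found in 1.6%. The printed Pou5f1 bases held no match. The bases before the downstream start of Pou5f1, not printed, held the reverse complement of the Sox string once, at bases 93 to 98, and those before the downstream start of Nanog held the same 2 matches as the printed sequence, with which they overlap. These letters describe the sequence only. The Flag peak over the approximate start of Pou5f1 ran from 1194 bp before that start to 607 bp past it. If that start is the upstream one used here, the rounding of about 500 bp leaves the printed Pou5f1 bases inside that peak. The Flag peak at Nanog began only 47 bp before the approximate start. There the rounding does not let the printed bases be placed inside or outside the peak. The sequences of the whole peaks were not read.

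Joining overlapping peaks of the lists gave 14 sites in the windows, of which 7 were listed with both antibodies, 2 with HA only and 5 with Flag only. Of the 9 HA peaks, 7 overlapped a Flag peak by at least 1 bp (77.8%, 95% Wilson interval 45.3 to 93.7), against 73.3% of the whole HA list. Of the 13 Flag peaks, 8 overlapped an HA peak (61.5%, 35.5 to 82.3), against 54.7% of the whole Flag list. Both shares have the list's share within their intervals, which cover counting error only. Neighbouring peaks of 1 library are not independent measurements.

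At Pou5f1 the list of each antibody held a site just before the gene, and the edges of that site differed between the lists. The HA peak was 675 bp wide (chromosome 17, 35641587 to 35642261) and lay from about 1413 to 739 bp before the approximate start. The Flag list had 2 peaks there, 1176 bp (35640589 to 35641764) and 1802 bp (35641806 to 35643607), which together ran from about 2.41 kb before the approximate start to 607 bp past it. The HA peak stopped short of the gene, while the longer Flag peak reached into it.

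The 2 Flag peaks at Pou5f1 were separated by 41 bp, and the HA peak lay across that gap. It overlapped the upstream Flag peak by 178 bp and the downstream one by 456 bp, so all of it except the 41 bp of the gap was inside Flag peaks. An HA peak that meets at least 2 Flag peaks is uncommon in these lists (10 of 3406, 0.294%), as are neighbouring Flag peaks no farther apart than these (11 of 4549, 0.242%). The HA centre lay between the Flag centres, 747.5 bp from that of the upstream Flag peak and 782.5 bp from that of the downstream one. The median was 50.5 bp over the 2474 pairs in which 1 HA peak meets 1 Flag peak. That median leaves out such split sites, so it is not a like measure for this one. The overlap covered 15.1% of the upstream and 25.3% of the downstream Flag peak, so with a rule of at least 50% of each peak this site was not shared.

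The other peaks of the chromosome 17 window were each in 1 list. An HA peak of 433 bp (35622594 to 35623026) lay about 20 kb before Pou5f1, 17.6 kb from the nearest Flag peak. Among the 910 HA peaks of the series with no Flag overlap, 19.9% had a Flag peak at this distance or nearer. A Flag peak of 585 bp (35685370 to 35685954) lay about 37.4 kb past the gene and 43.1 kb from the nearest HA peak, and 23.2% of the 2072 Flag peaks with no HA overlap were as near to one. Beyond these, the next HA peaks were 923 kb before and 515 kb after the window's own, and the next Flag peaks 233 and 178 kb away.

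**Figure D1:**
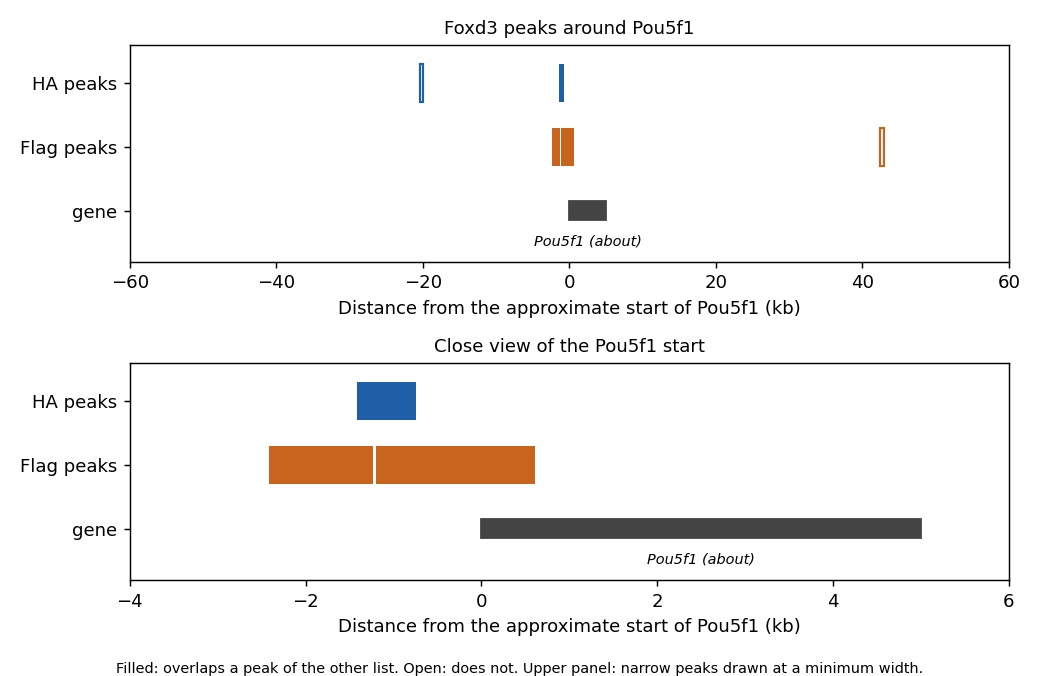
Peaks of the HA list (blue) and the Flag list (orange) around Pou5f1, drawn by their distance in kb from the approximate start of the gene; filled boxes overlap a peak of the other list and open boxes do not. In the close view the 675 bp HA peak spans the 41 bp gap between the Flag peaks of 1176 and 1802 bp, and only the longer Flag peak reaches the gene.

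At Nanog itself each antibody had 1 wide peak close to the gene, at different places. The HA peak was 1406 bp wide (chromosome 6, 122651954 to 122653359) and lay about 5.05 to 3.64 kb before the approximate start. The Flag peak was 1703 bp wide (122656953 to 122658655), began 47 bp before the approximate start, which is within its rounding, and ran 1655 bp past it. The Flag list had no peak over the upstream HA site, and the HA list had none over the gene start.

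The 2 peaks were 3593 bp apart, so they stayed unshared with the lists joined over gaps of up to 500 bp. Among unshared peaks of the series, 7.25% of those of HA and 4.97% of those of Flag had a peak of the other list within this distance. Both were among the wide peaks of their lists: 1.53% of HA peaks were at least as wide as the HA peak, which ranked 52 of 3406, and 0.766% of Flag peaks as the Flag peak, which ranked 35 of 4569. The threshold of each list decides which sites it names, and a site missing from a list is no measurement of absent signal.

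Before Dppa3 the lists named the same 2 sites. A site of 1334 bp in HA (122557605 to 122558938) and 1392 bp in Flag (122557606 to 122558997) lay about 21 kb before the approximate Dppa3 position. Its starts differed by 1 bp and its ends by 59 bp, and it was wide in each list, with 1.88% of HA and 1.9% of Flag peaks at least as wide. In the table's gene order, Gdf3 is the gene before Dppa3, but whether this site lies in it was not determined here.

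The other shared site before Dppa3 was narrow, at 493 bp in HA (122574420 to 122574912) and 336 bp in Flag (122574477 to 122574812). It was about 5.09 kb from the approximate Dppa3 position in HA, which is about the size of that position's own rounding. The whole Flag peak lay inside the HA peak and their centres were 21.5 bp apart. At 336 bp the Flag peak was narrower than the list's median of 490 bp, and 83% of Flag peaks were at least as wide.

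Between Dppa3 and Nanog, far from either gene, the Flag list had 2 peaks and the HA list none. They were 356 bp (122609643 to 122609998) and 536 bp (122612798 to 122613333) wide, 2.8 kb apart, and lay about 47 and 43.7 kb before Nanog. The nearest HA peaks were 34.7 and 37.9 kb away, and 20% and 21.3% of all unshared Flag peaks had an HA peak at least as near. In HA, the stretch between the narrow site before Dppa3 and the site before Nanog was 77 kb long with no peak.

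Past Nanog, on the side where Slc2a3 follows in the gene order, both lists had a close group of sites. It comprised 3 HA peaks between 122712428 and 122716871, about 47.4 kb and more past the end of Nanog, and all 3 overlapped Flag peaks. Their widths were 457, 535 and 798 bp in HA and, in the same order, 328, 907 and 742 bp in Flag. The gaps between the HA peaks were 2062 and 592 bp, and between their Flag partners 1995 and 293 bp. The middle site differed the most in extent, the Flag peak being 1.70 times as wide as the HA peak and ending 342 bp farther from Nanog.

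A further Flag peak lay 3.35 kb past the last of these Flag peaks. It was 821 bp wide (122720214 to 122721034), 3.34 kb from the nearest HA peak, and 4.63% of unshared Flag peaks had an HA peak as near. With peaks linked at less than 5 kb, the group thus had 3 peaks over 4.44 kb in HA and 4 over 8.44 kb in Flag. Groups of 3 or more held 1.15% of the HA list (12 groups) and 1.23% of the Flag list (17 groups). This group had the same peaks with a linking distance of 25 kb. At that distance groups of 3 or more held 6.75% of the HA list (65 groups) and 6.87% of the Flag list (89 groups).

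The last site on the far side of Nanog lay about 95.4 kb past the gene and was shared almost edge to edge. It measured 768 bp in HA (122760356 to 122761123) and 814 bp in Flag (122760316 to 122761129), with ends 6 bp apart and the HA peak wholly inside the Flag peak. The next HA peak past the neighbourhood was 1990 kb away and the next Flag peak 2610 kb away. On the side before Gdf3 and Dppa3, each list had 241 kb with no peak.

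**Figure D2:**
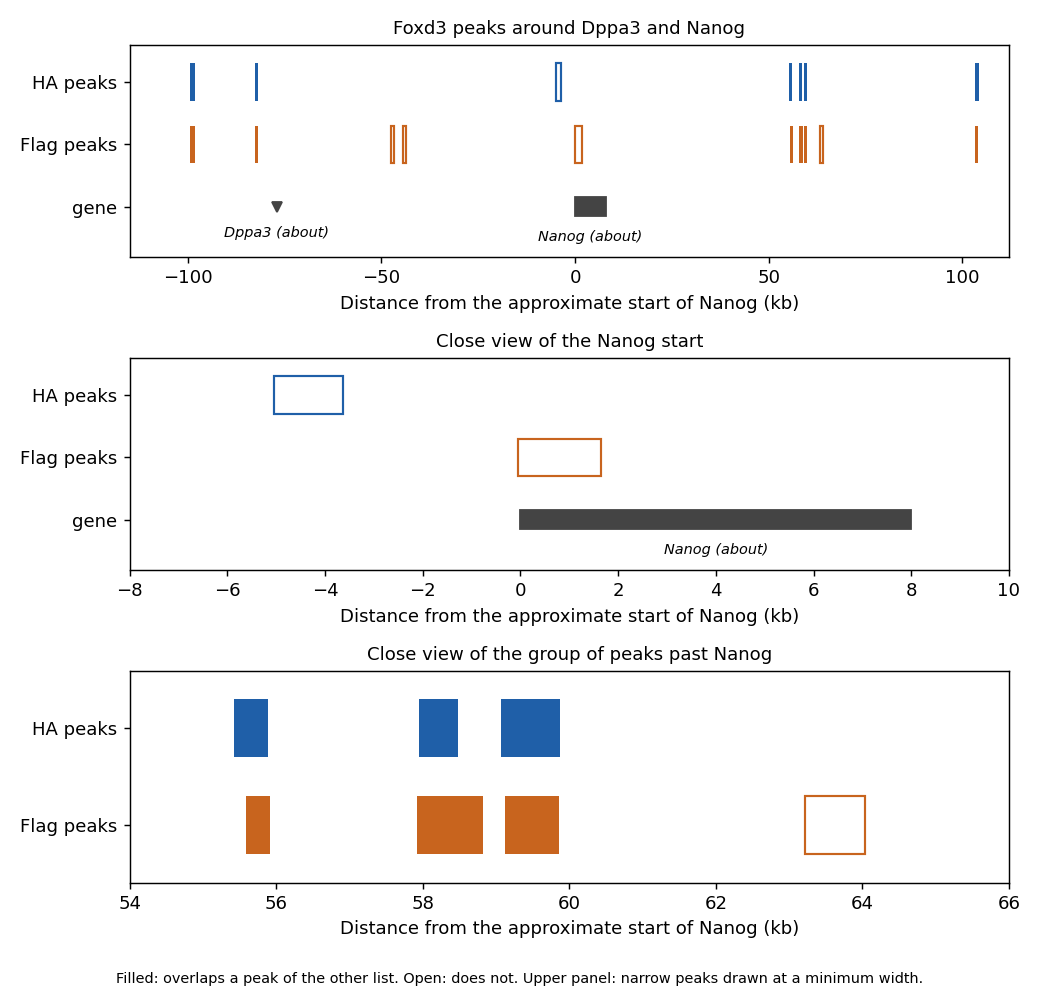
Peaks of the HA list (blue) and the Flag list (orange) around Dppa3 and Nanog, by distance in kb from the approximate start of Nanog; filled boxes overlap a peak of the other list and open boxes do not. The close view of the start shows the unshared HA peak of 1406 bp and the unshared Flag peak of 1703 bp with 3593 bp between them, and the last panel shows the 3 shared sites and the Flag-only site past the gene.

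As listed, the 6 shared sites of the Nanog and Dppa3 neighbourhood were matched more closely than the Pou5f1 site, which the Flag list splits. Each was 1 HA peak with 1 Flag peak, and the centres were 15 to 156 bp apart with a median of 25.75 bp. The Flag peak was the wider at 3 of them and the HA peak at the other 3, and 4 of the 6 had the narrower peak wholly within the wider. All 6 stayed shared when at least 50% of each peak, or centres within 200 bp, were required. At Pou5f1, with the Flag site listed as separate peaks 41 bp apart, neither of these rules left a shared peak. Joined, those Flag peaks span 3019 bp and the HA peak lies wholly inside them. By the coordinates the centres are then within 200 bp, so the centre rule is met once the Flag peaks are joined.

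Widths differed widely among the members. Among HA members the shared peaks ranged from 457 to 1334 bp with a median of 675 bp, and the unshared ones measured 433 and 1406 bp. Among Flag members the 8 shared peaks ranged from 328 to 1802 bp with a median of 860.5 bp, and the 5 unshared ones from 356 to 1703 bp with a median of 585 bp. The medians of all shared peaks were 567 bp in HA and 548 bp in Flag, and those of all unshared peaks 498 and 407 bp. The widest member was the Flag peak at the start of Pou5f1, 1802 bp, which 0.569% of Flag peaks equalled or exceeded.

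**Figure D3:**
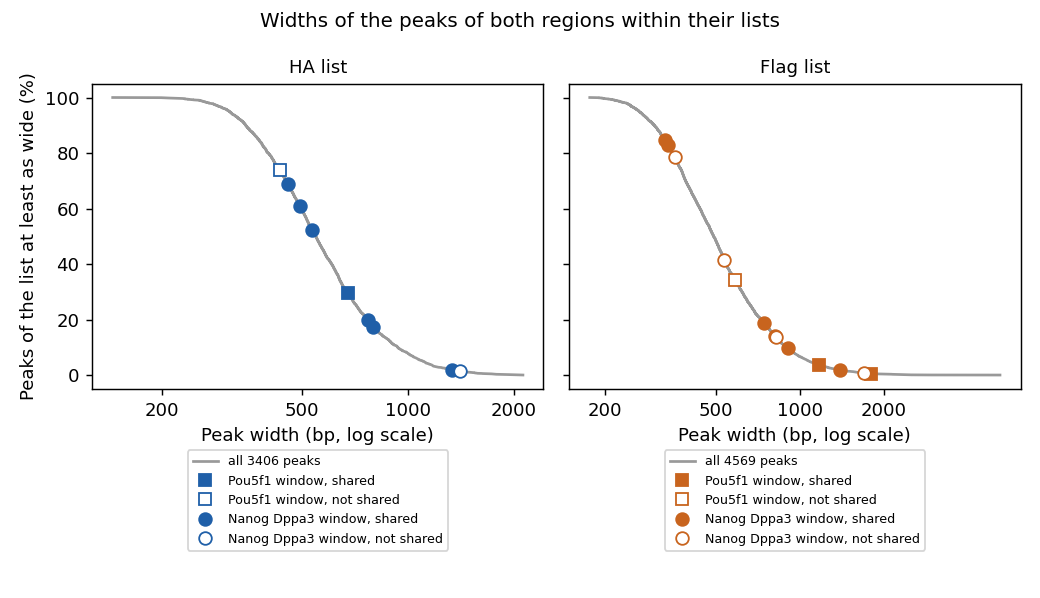
For each list, the grey curve gives the percentage of peaks at least as wide as the width on the log-scaled horizontal axis (bp), and symbols place the peaks of the Pou5f1 window (squares) and the Nanog Dppa3 window (circles), filled where shared. HA members lie between 433 and 1406 bp and Flag members between 328 bp and the wide end of the curve, where the Flag peaks of 1802 and 1703 bp over the starts of Pou5f1 and Nanog fall.

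The Nanog and Dppa3 neighbourhood held more peaks than nearly all stretches of its length. Its 7 HA peaks correspond to 25.9 per Mb (exact 95% Poisson interval 10.4 to 53.4) and its 10 Flag peaks to 37 per Mb (17.8 to 68.1). When the chromosomes were cut into consecutive windows of 270 kb, 6 of 9683 held at least 7 HA peaks (0.062%) and none held 10 Flag peaks (0%), with a maximum of 9. The Flag count of 0 depends on where the cuts fall. With windows started at each peak, 10 was the highest Flag count anywhere and 1 other place reached it, while 11 other places reached 7 HA peaks.

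The Pou5f1 window was less full. It held 2 HA peaks, and 4.99% of the 12456 consecutive windows of 210 kb held at least as many. It held 3 Flag peaks, a number that 2.44% of windows reached. With windows started at each peak, 41.5% of HA peaks (733 other places) and 21.1% of Flag peaks (429 other places) began a window as full. Such windows hold at least 1 peak by construction, and the shares are of peaks, so they are not like those of consecutive windows. For the Nanog and Dppa3 window the shares of this kind were 1.12% of HA peaks and 0.0438% of Flag peaks. Most of the consecutive windows held no peak, 80% in HA and 75.1% in Flag. The limits of both windows were drawn around known genes with results of these lists in view, so these shares describe the windows and were not tested.

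**Figure D4:**
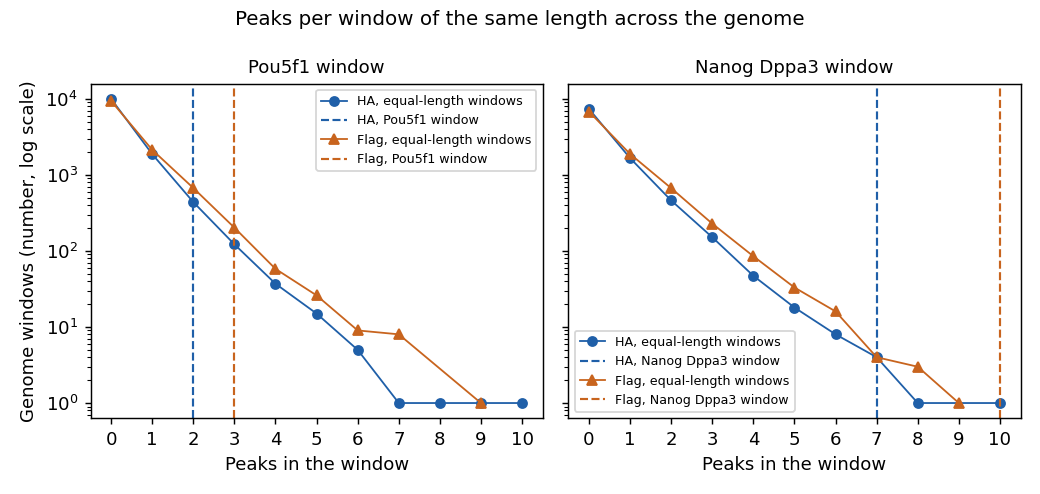
Number of consecutive genome windows (log scale) that hold a given number of HA peaks (blue circles) or Flag peaks (orange triangles), for windows of 210 kb (left) and 270 kb (right); dashed lines mark the counts in the Pou5f1 and Nanog Dppa3 windows. The lines at 2 and 3 peaks for Pou5f1 lie within well-filled classes. For Nanog and Dppa3, the HA line at 7 lies in a class of 4 windows, below the HA maximum of 10. The Flag line at 10 lies past the Flag maximum of 9.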

How the data were processed

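Tagged Foxd3 was mapped by ChIP-seq in 1 library per antibody. The authors deposited 1 peak list for each, holding chromosome, start and end in bp and no other value, in mm9 coordinates (build from the submitters' processing notes). How reads were aligned, how peaks were called and how the input was used is not given in the sources used here. A site below a list's threshold is missing from it.

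Starts were converted to 1-based positions. Peaks sharing at least 1 bp were called shared, and 2496 shared HA peaks were counted both by this code and by bedtools 2.31.1. On simulated data 400 of 400 planted overlaps were found. Every peak overlapping either window was described. Shares have Wilson and densities exact Poisson 95% intervals, for counting error only. Background shares come from whole lists, or from consecutive windows up to the last peak of each chromosome. The code ran in Python 3.11.15 with scipy 1.17.1, pandas 2.3.3, numpy 2.4.6 and matplotlib 3.10.9. All 5 genes matched the RefSeq table of GRCm38.p6 by symbol, and 2 had promoter sequences. The windows, genes and lists were chosen with earlier results of these data known. Windows started at each peak were added after the data were seen. A planned list of other pluripotency genes was not counted, since that needs mm9 annotation. Alternatives varied the overlap rule, the peaks kept and the window limits.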

Additional observations from a re-analysis of the deposited data

How the results depend on the processing

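No paired analysis was possible because there is only 1 library per antibody, and no replicate could be left out. Of 47 alternative values for 12 results, 24 stayed within 1.5 times the count or inside the interval and 23 moved. At Pou5f1 the shared HA peaks fell from 1 to 0 and the shared Flag peaks from 2 to 0 when at least 50% of each peak, or centres within 200 bp, were required. With Flag peaks less than 50 bp apart joined, a setting chosen after seeing the data, there was 1 shared Flag peak. Requiring 50% of each peak as well gave 0 shared HA peaks. The widths fix that outcome, since an HA peak of 675 bp cannot cover 50% of a joined Flag peak of 3019 bp. The rule of centres within 200 bp was not among the alternatives for the joined peaks, but their coordinates meet it. In the wider 50% of each list the Nanog and Dppa3 window kept 4 HA peaks, with 3 shared HA and 3 shared Flag peaks, and the Pou5f1 window 1 HA peak. In the first 50% of the lines the Pou5f1 window had 0 HA and 0 Flag peaks and so 0 shared in either list, and the Nanog and Dppa3 window had 4 HA and 4 Flag peaks, 2 shared in each. Fewer peaks are available in these shortened lists by construction. The lists do not state the order of their lines, so what the first 50% of the lines selects is unknown. Cutting 25% off each side, which cannot raise a count, left 2 HA and 4 Flag peaks in the Nanog and Dppa3 window. Keeping only genome windows with at least 1 peak cannot lower a share. Among these, 17.7% for HA and 8.64% for Flag held at least as many peaks as the Pou5f1 window, and 0.183% held at least 7 HA peaks. How much signal a site missing from a list could have had cannot be bounded, since the lists give no depth.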

Other observations

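The deposited lists are not in genome order and do not state what their order is. The shared site about 95.4 kb past Nanog stood the earliest of the members in each list, on line 447 of 3406 in HA and line 738 of 4569 in Flag. The wide Flag peak over the start of Nanog, rank 35 by width, stood on line 3904, and the 1802 bp Flag peak over the start of Pou5f1, rank 26 by width, on line 2832. The HA peak before Pou5f1 was on line 2189 and the HA peak before Nanog on line 1652. The narrow Flag peak of 328 bp in the group past Nanog was on line 1147. Flag lines 4013 and 4014 hold 2 peaks of the same neighbourhood that lie far apart, the 742 bp peak of the group past Nanog and the 536 bp peak before it.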
